A study of Mus musculus with 14 samples.

Results

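Psmb4, Psmb6 and Psmd7 encode subunits of the proteasome, and each is represented by 1 transcript among the 1399 counted in MEFs, fibroblasts cultured from mouse embryos. The 3 transcripts were taken by gene symbol, but with earlier results of these data known. They were followed across 14 libraries in 7 groups of 2. The study concerns how cystine stored in the lysosome bears on ferroptosis, an iron-dependent cell death. All groups were MEFs labelled wild type. The first experiment held cysteine starvation, full amino acid starvation and the untreated group NT. The second held cells transfected with a short hairpin RNA against Ctns together with a CTNS plasmid (rescue), cells transfected with the hairpin alone (knockdown), cells treated with cysteamine, and the untreated group NT2. Cystinosin, the product of Ctns, exports cystine from lysosomes, and the drug cysteamine empties them of it. NT was taken as the control of the starvations and NT2 of the other groups from the sample and column names, since no label states it. NT2 and the cysteamine group were not labelled as transfected, so knockdown and transfection cannot be told apart where those groups are compared. No label says that libraries sharing a group were grown as separate cultures, so p-values measure the spread between libraries, which may be technical.

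The proteasome is the protease complex that degrades proteins marked with ubiquitin and returns their amino acids to the cell. Its barrel-shaped core particle holds the active sites inside, and a regulatory particle at its end recognises, unfolds and feeds in the substrate. Psmb6 encodes the core subunit that cuts after acidic residues, with a threonine at the start of the mature chain as its nucleophile. Psmb4 encodes a core subunit of the same ring without catalytic activity of its own, and Psmd7 encodes a subunit of the lid of the regulatory particle, the partner of the deubiquitinase that removes ubiquitin from the substrate.

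The counted transcripts were the spliced coding ones. In the GENCODE annotation on GRCm38, which is not the assembly the counts were made on, Psmb4 (ENSMUST00000005923) lies on the minus strand at chr3:94884093-94886961 with 7 exons. Psmb6 (ENSMUST00000018430) lies on the plus strand at chr11:70525386-70527649 with 6 exons, and Psmd7 (ENSMUST00000044106) on the minus strand at chr8:107580381-107588464 with 7 exons. Their transcripts measure 1183, 798 and 1581 bases. Of all stretches of 50 bases in the Psmb4 and Psmd7 transcripts, 0 occur in an annotated transcript of another gene.

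Psmb6 has a processed pseudogene, Psmb6-ps2, at chr1:101385886-101386590, which matches it at 93.9% of 704 aligned bases. The pair is shown because fragments of the pseudogene could be counted with the gene. The pseudogene lacks 13 bases, in capitals in the first line, which begin within the codon of the catalytic threonine:
Psmb6: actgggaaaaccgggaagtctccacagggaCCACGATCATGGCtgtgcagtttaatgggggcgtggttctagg
Psmb6-ps2: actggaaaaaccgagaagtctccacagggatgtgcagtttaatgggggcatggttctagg

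In 1 coding stretch of 69 bases, in capitals in both lines, the gene and the pseudogene are identical:
Psmb6: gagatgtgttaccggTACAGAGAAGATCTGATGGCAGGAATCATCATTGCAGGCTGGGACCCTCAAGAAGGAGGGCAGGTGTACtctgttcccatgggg
Psmb6-ps2: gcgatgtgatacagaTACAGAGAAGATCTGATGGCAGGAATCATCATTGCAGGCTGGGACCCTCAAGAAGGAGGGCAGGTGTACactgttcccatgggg
That stretch gives the 20 of 749 windows of 50 bases (2.67%) that the pseudogene shares with the Psmb6 transcript. The count of Psmb6 is thus uncertain at least to the extent that reads fell there. Another pseudogene, Psmb6-ps on chromosome X, matches Psmb6 at 89.2% of 713 aligned bases and shares no such window. Shorter windows, and matches with mismatches, were not searched.

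The libraries differed in depth and in makeup. Summed over the listed transcripts, the starvation experiment had 25697 to 51224 counts per library and the other 64530 to 165747. The 3 transcripts with the highest counts held 20.5% to 54.5% of the counts in the starvation experiment and 3.29% to 21.1% in the other. Of 17 fibroblast markers 11 were listed, and their summed share of counts was 3.47% to 4.44% in cysteine starvation, 0.926% to 1.51% in full amino acid starvation and 0.724% to 2.39% in NT. It was 2.54% to 2.60% in the rescue, 1.71% to 1.72% in the knockdown, 3.49% to 3.58% with cysteamine and 6.18% to 6.58% in NT2. Of the markers of other tissues, only Ctrb1 of 8 pancreatic, Cdh1 of 7 epithelial and Ttn of 7 skeletal muscle genes were listed, each at no more than 0.093% of a library. No listed transcript had a count under 1 in any library, so a count of 1 is the lowest value that could be seen. The level of Ctns was not analysed here, so the knockdown and rescue labels were not checked against it.

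Levels are given as CPM, counts relative to library size after TMM scaling (a trimmed mean of log ratios), with the SD over 2 libraries. Log2 fold changes carry a standard error (SE) and come, with the adjusted p, from edgeR's quasi-likelihood test fitted to all 14 libraries. Adjustment was by Benjamini-Hochberg across 1399 transcripts, and a transcript was called at an adjusted p under 0.05. The 3 transcripts were tested in all 9 pairs of groups within an experiment, which makes 27 tests. 1 passed, the lower Psmd7 level in the knockdown than with cysteamine, and 2 of 27 had an unadjusted p under 0.05. Of all 1399 transcripts, 0 to 441 were called in a comparison, and 109 to 596 had an unadjusted p under 0.05.

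In the second experiment the 3 transcripts were measured with 6 to 58 counts per library. Per length, Psmb6 was the most abundant of the 3 in each group. It stood at 215 ± 69.0 CPM per kilobase in the rescue, 274 ± 0.658 in the knockdown, 256 ± 15.8 with cysteamine and 209 ± 12.8 in NT2 (SD, n = 2 each). Psmb4 stood at 108 ± 63.2, 153 ± 53.2, 128 ± 15.4 and 175 ± 24.8 CPM per kilobase in the same order of groups. Psmd7 stood at 96.8 ± 18.2, 77.5 ± 11.6, 156 ± 10.4 and 121 ± 28.8 CPM per kilobase. On these means Psmd7 stood above Psmb4 with cysteamine and below it in the other groups, but in the second rescue library it also stood above, at 109.7 against 62.8 CPM per kilobase.

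**Figure D1:**
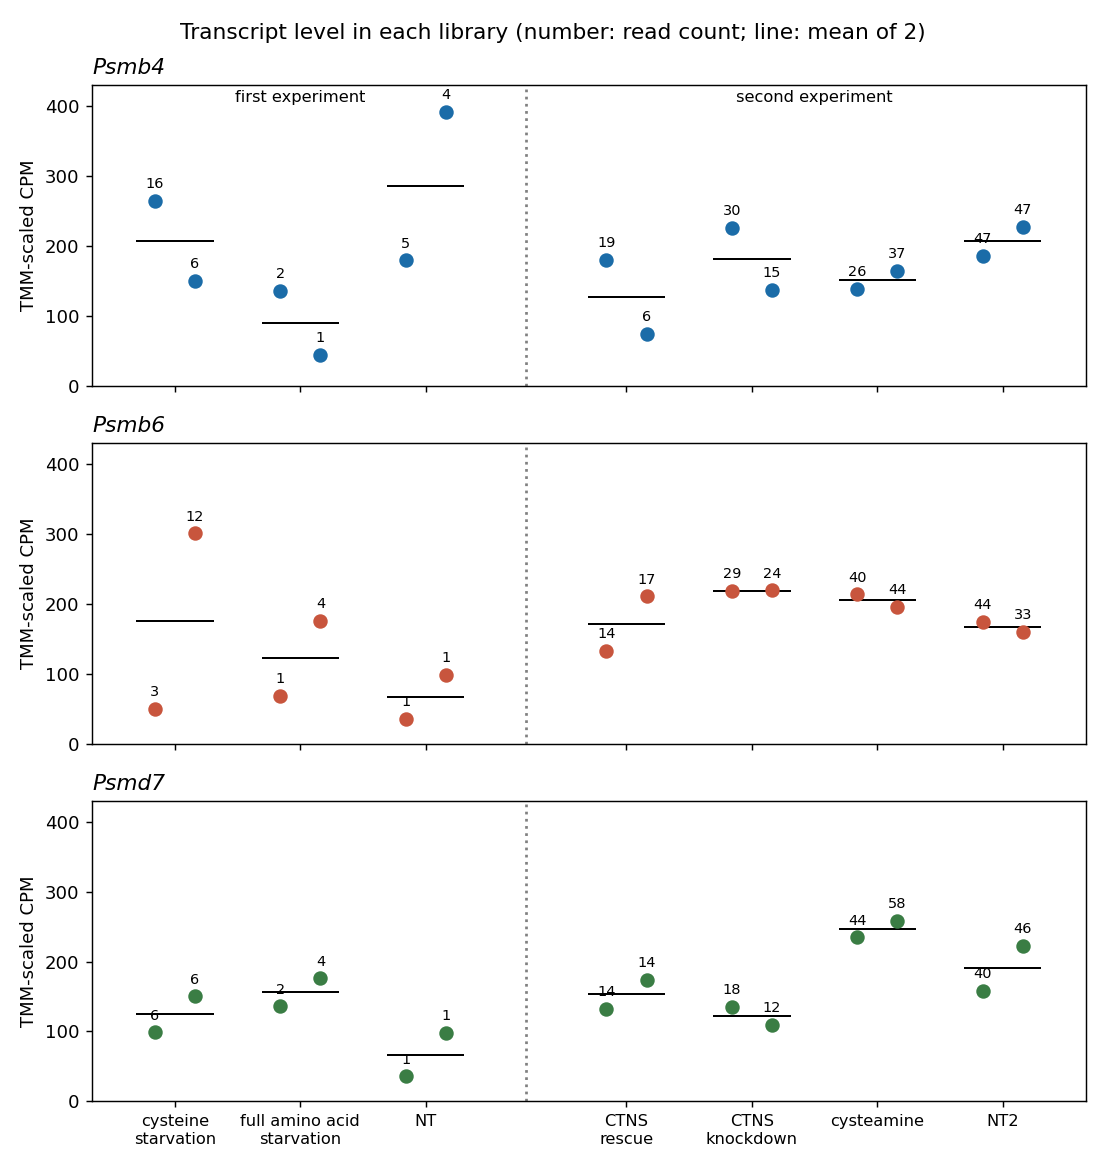
Level of each transcript in every library, in TMM-scaled CPM on the vertical axis, by group on the horizontal axis; each point is 1 library with its read count above it, and the line is the mean of 2. In the second experiment the 2 Psmd7 points of the knockdown (136 and 109.6 CPM) lie below both cysteamine points (235 and 258 CPM), while in the first experiment most points rest on fewer than 10 counts.

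Psmd7, the lid subunit, measured 133 and 173 CPM in the rescue libraries of the second experiment, from 14 counts each. In the knockdown it measured 136 and 109.6 CPM, from 18 and 12 counts. With cysteamine it measured 235 and 258 CPM, from 44 and 58 counts, and in NT2 158 and 223 CPM, from 40 and 46 counts. Both cysteamine libraries stood above all 6 others, and both knockdown libraries below both NT2 libraries. Libraries of the knockdown lay below those of cysteamine for 32.5% of all transcripts and below those of NT2 for 31.6%, those of the rescue below cysteamine for 34.4%, and those of cysteamine above NT2 for 39.7%. From low to high the group means were 123 ± 18.4 CPM in the knockdown, 153 ± 28.8 in the rescue, 191 ± 45.5 in NT2 and 246 ± 16.4 with cysteamine. No neighbours in that order were called by edgeR's test, although the libraries of NT2 and cysteamine did not overlap.

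Psmd7 fell in the knockdown relative to cysteamine, with a log2 fold change of -0.99 ± 0.31 (adjusted p = 0.031, n = 2 each). It was the only 1 of the 3 called there, in a comparison that called 24.7% of all transcripts and 14.7% of them as lower. The call was lost when any 1 of the 4 libraries was left out, which leaves 1 library in a group. Fewer of all transcripts were called in those fits too, as given in the closing section. The log2 fold change of Psmd7 in them ran from -1.16 to -0.86. In the rescue relative to cysteamine Psmd7 stood at -0.70 ± 0.32 (95% interval -1.37 to -0.029; adjusted p = 0.102). The knockdown against NT2 gave -0.61 ± 0.32 (adjusted p = 0.156), cysteamine against NT2 0.38 ± 0.27 (adjusted p = 0.371), the rescue against NT2 -0.32 ± 0.32 (adjusted p = 0.493) and the rescue against the knockdown 0.29 ± 0.39 (adjusted p = 0.809). These comparisons share libraries and are not independent of each other.

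**Figure D2:**
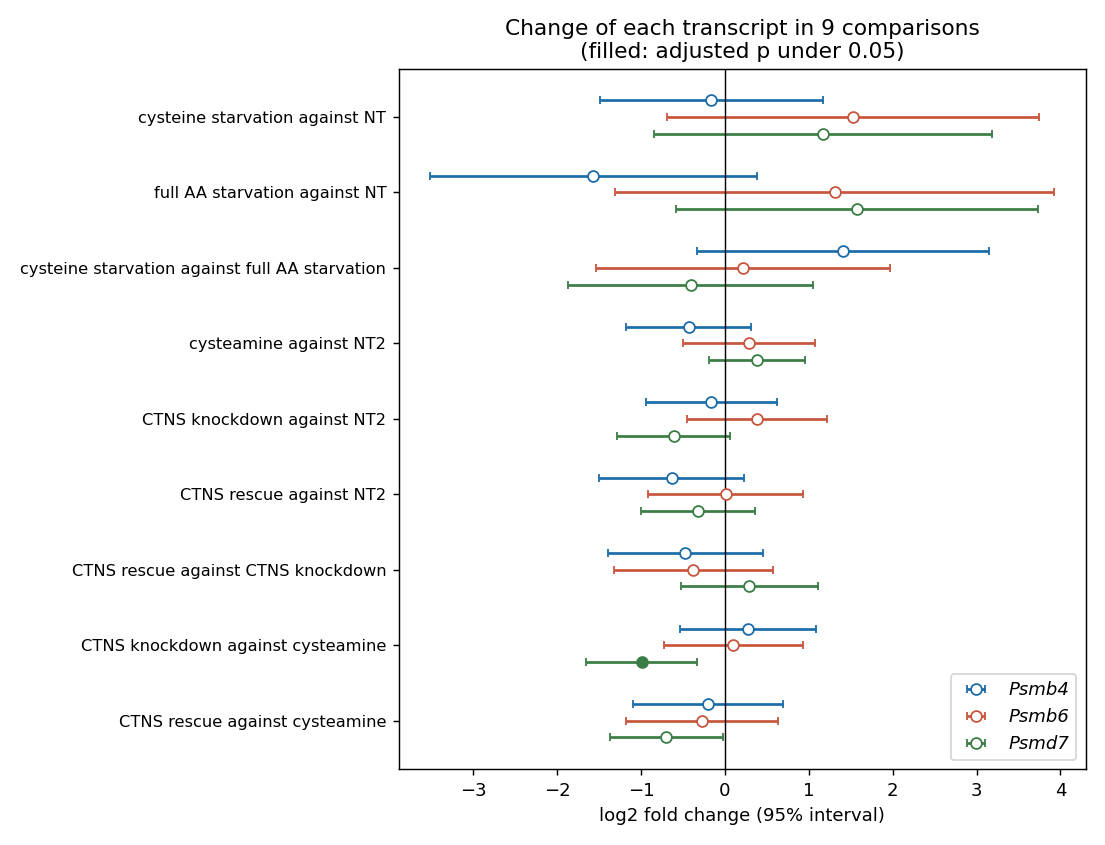
Log2 fold change of each transcript on the horizontal axis, with its 95% interval, in the 9 comparisons on the vertical axis; a filled point passed an adjusted p of 0.05. Psmd7 in the knockdown against cysteamine, at -0.99, is the filled point, and the intervals of the first 3 comparisons, from the first experiment, are the widest.

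Because a share within a library does not depend on how libraries are scaled, Psmd7 was also set against the summed counts of the 11 proteasome subunits listed. It made up 4.78% and 5.79% of them in the rescue, 3.84% and 3.44% in the knockdown, 8.40% and 8.66% with cysteamine, and 5.81% and 7.96% in NT2. With libraries pooled, the share was 3.67% in the knockdown (exact binomial 95% interval 2.49 to 5.19) and 8.54% with cysteamine (7.02 to 10.3), intervals that cover counting error only. The knockdown and cysteamine shares thus did not overlap. They rest on the same Psmd7 counts as the levels, so their direction is not separate support. The CPM of the 11 subunits summed to 3533 and 3187 in the knockdown and to 2797 and 2980 with cysteamine. A higher sum by itself gives a lower share. How many other transcripts had shares without overlap was not counted. No test was made on the shares.

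Ribosomal protein transcripts moved with the Psmd7 difference. The CPM of 48 of them summed to 32676 and 32147 in the knockdown and to 55740 and 57394 with cysteamine. When the libraries were scaled on these transcripts in place of the trimmed mean, a choice made after the data were seen, Psmd7 stood at -0.20 ± 0.33 (adjusted p = 0.621) in the knockdown against cysteamine. Under that scaling the median of all transcripts moved to 0.86, from 0.065, so Psmd7 stayed below it. The pancreatic marker Ctrb1 held 0.0335% to 0.0477% of counts in the knockdown and 0.00736% to 0.00987% with cysteamine. The fibroblast markers also differed between these groups, as given above, as did the share of the 3 most abundant transcripts, at 15.8% or more in the knockdown against 7.98% or less with cysteamine. The part of any of these in the Psmd7 difference was not tested, and in bulk RNA fewer cells of a type and less RNA per cell cannot be told apart.

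**Figure D3:**
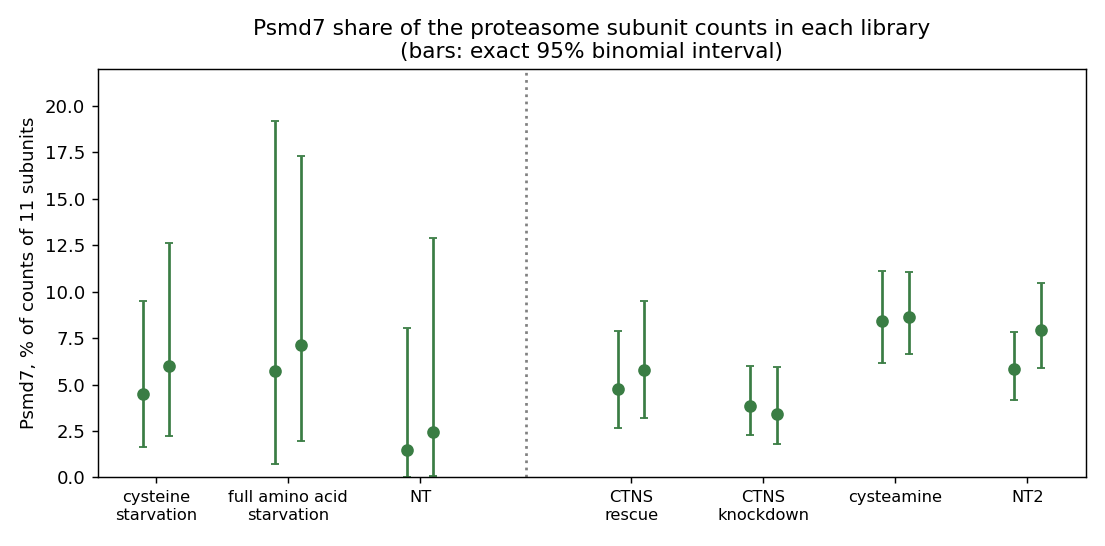
Share of Psmd7 in the summed counts of 11 proteasome subunits, in percent on the vertical axis, for each library by group; bars are exact 95% binomial intervals. The knockdown libraries stand at 3.84% and 3.44% and the cysteamine libraries at 8.40% and 8.66%.

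Psmb6, the catalytic subunit, in the second experiment measured 133 and 211 CPM in the rescue, 218 and 219 in the knockdown, 213 and 196 with cysteamine and 174 and 159.7 in NT2. The knockdown and cysteamine libraries all stood above both NT2 libraries, as did 40.2% of all transcripts in the knockdown and 39.7% with cysteamine, and the rescue libraries spanned the NT2 values. The log2 fold change was 0.38 ± 0.39 in the knockdown against NT2 (adjusted p = 0.494; 95% interval -0.45 to 1.22). It was 0.29 ± 0.37 with cysteamine against NT2 (adjusted p = 0.649; -0.50 to 1.08), and 0.0086 ± 0.44 in the rescue against NT2 (adjusted p = 0.994; -0.91 to 0.93). Against the knockdown, the rescue stood at -0.38 ± 0.45 (adjusted p = 0.773), with both rescue libraries below both knockdown libraries, as for 23.7% of all transcripts. The knockdown stood at 0.099 ± 0.39 against cysteamine (adjusted p = 0.882), again without overlap, as for 36% of all transcripts that were higher. These intervals reach from falls to rises, so no difference was detectable at this depth and equal levels are not shown.

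Psmb4, the core subunit without catalytic activity, measured 180.1 and 74.3 CPM in the rescue, 226 and 137 in the knockdown, 139 and 165 with cysteamine and 186 and 228 in NT2. Both cysteamine libraries and both rescue libraries stood below the NT2 libraries, as for 26.2% and 34.4% of all transcripts in those comparisons, and the rescue libraries differed most from each other, on 19 and 6 counts. The log2 fold change was -0.64 ± 0.41 in the rescue against NT2 (adjusted p = 0.259; 95% interval -1.50 to 0.23). Without the first rescue library it was -1.48, and without the second -0.19. The log2 fold change was -0.43 ± 0.35 with cysteamine against NT2 (adjusted p = 0.438) and -0.16 ± 0.37 in the knockdown against NT2 (adjusted p = 0.757). In the order of group means, 127 ± 74.8 CPM in the rescue, 152 ± 18.2 with cysteamine, 181 ± 62.9 in the knockdown and 207 ± 29.3 in NT2, no neighbours differed beyond their spread.

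By edgeR's quasi-likelihood test 0 of the 3 transcripts were called with cysteamine, in the knockdown or in the rescue against NT2, where 10.5%, 30.8% and 31.5% of all transcripts were called. In the rescue against the knockdown 0 of 3 were called (0.643% of all), and in the rescue against cysteamine 0 of 3 (30.4% of all). In these 5 comparisons 1 of the unadjusted values was under 0.05, that of Psmd7 in the rescue against cysteamine. There 596 of all 1399 transcripts had an unadjusted p under 0.05, and 154 to 587 did in the others. The Wald test of DESeq2 called 0 in the 4 of these comparisons where it gave the 3 transcripts an adjusted p, which it did not in the rescue against the knockdown. In the knockdown against cysteamine the Wald test called 288 transcripts. Psmd7 was the only 1 of the 3 among them, at -0.99 and close to the threshold (adjusted p = 0.0491).

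In the first experiment the counts were too few to place the 3 transcripts closely. Psmb6 measured 49.5 and 300.4 CPM in cysteine starvation, from 3 and 12 counts. It measured 68.1 and 176 CPM in full amino acid starvation, from 1 and 4 counts, and 35.8 and 98.0 CPM in NT, from 1 count each. In every pair of these groups the libraries overlapped, and the spread was widest in cysteine starvation. On summed counts, the ratio to NT was 2.84 in cysteine starvation (exact 95% interval 0.661 to 25.6) and 2.55 in full amino acid starvation (0.417 to 26.7), intervals that cover counting error only. The ratio rested on the second cysteine starvation library: without it the log2 fold change against NT was -0.091, against 1.53 ± 1.05 with all libraries (adjusted p = 0.476).

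Psmd7 measured 99.0 and 150.2 CPM in cysteine starvation, from 6 counts each, 136 and 176 CPM in full amino acid starvation, from 2 and 4 counts, and 35.8 and 98.0 CPM in NT, from 1 count each. The libraries of both starvation groups stood above both NT libraries, as for 24.5% of all transcripts with cysteine withheld and 16.3% with all amino acids withheld. The ratio to NT was 2.28 in cysteine starvation (0.507 to 20.9; adjusted p = 0.566) and 3.06 in full amino acid starvation (0.546 to 31.0; adjusted p = 0.681). Since NT was at the lowest count that could be seen, these ratios have no upper bound of use. They rested on the first NT library: without it the log2 fold change was 0.29 in cysteine starvation, against 1.17 ± 0.95 with all libraries, and 0.70 in full amino acid starvation, against 1.58 ± 1.02.

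Psmb4 was the best counted of the 3 in NT, at 5 and 4 counts or 179 and 392 CPM. It measured 264 and 150.2 CPM in cysteine starvation, from 16 and 6 counts, and 136 and 43.97 CPM in full amino acid starvation, from 2 counts and 1. Both full starvation libraries stood below all 4 others, and leaving out each library in turn gave a log2 fold change of -2.42 to -0.82 against NT; 14.6% of all transcripts lay so against NT, and 25.7% were higher without overlap in cysteine than in full amino acid starvation. The ratio was 0.339 for full amino acid starvation against NT (0.0591 to 1.36; adjusted p = 0.681), 0.927 for cysteine starvation against NT (0.410 to 2.29; adjusted p = 0.937), and 2.73 for cysteine against full amino acid starvation (0.820 to 14.3; adjusted p = 0.291). With plain library totals in place of the trimmed mean, the last of these was called at a log2 fold change of 2.44 (adjusted p = 0.0177), against 1.41 ± 0.82; that scaling moved the median of all transcripts to 1.09, from 0.051.

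By edgeR's quasi-likelihood test 0 of the 3 were called in cysteine starvation or in full amino acid starvation against NT, where 0% of all transcripts were called, while 230 and 109 transcripts had an unadjusted p under 0.05. Against full amino acid starvation, cysteine starvation gave 0 of 3, with 15% of all transcripts called. An unadjusted p under 0.05 was reached in 0 of these 9 tests. The Wald test of DESeq2 called 0 of the 3 in both comparisons with full amino acid starvation and gave them no adjusted p in cysteine starvation against NT.

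The other proteasome subunits listed, named after their values were seen, were the core subunits Psmb1, Psmb3 and Psmb7, the ATPase subunit Psmc3, which belongs to the ring that unfolds substrates, and the regulatory particle subunits Psmd1, Psmd3, Psmd11 and Psmd12. With the 3 above they made 11 of the 41 genes on the subunit lists, and none of the outer rings of the core was listed. Psmd7 in the knockdown against cysteamine was the 1 call among these 11 in the 9 comparisons, which called 0% to 31.5% of all transcripts and 24.7% in that one. There 9 of 11 subunits stood above 0, with a median log2 fold change of 0.17 against 0.065 over all transcripts, while Psmd7 stood at -0.99.

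In the knockdown against NT2, 9 of 11 subunits were above 0 with a median of 0.31 against 0.092 over all transcripts, and 0 were called in either direction, against 30.8% of all transcripts. Psmd11 stood at 0.77 ± 0.29 (417 ± 124 CPM in the knockdown and 245 ± 51.6 CPM in NT2, SD, n = 2 each; adjusted p = 0.0534), Psmb3 at 0.65 ± 0.28 and Psmc3 at 0.62 ± 0.26 (adjusted p = 0.0859 for both). In the rescue against the knockdown 2 of 11 were above 0, with a median of -0.36 against 0.0081 over all transcripts, and Psmd11 stood at -1.02 ± 0.34 (199 ± 107 and 417 ± 124 CPM; adjusted p = 0.257). With cysteamine against NT2 8 of 11 were above 0 with a median of 0.096, against 0.13 over all transcripts. The rescue against NT2 gave 4 of 11 above 0 (median -0.045, against -0.0055) and the rescue against cysteamine 3 of 11 (median -0.20, against 0.0084). Of all transcripts, 40.7% to 50.3% were below 0 in a comparison. The subunits were measured in the same libraries, so their directions are not independent of each other.

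**Figure D4:**
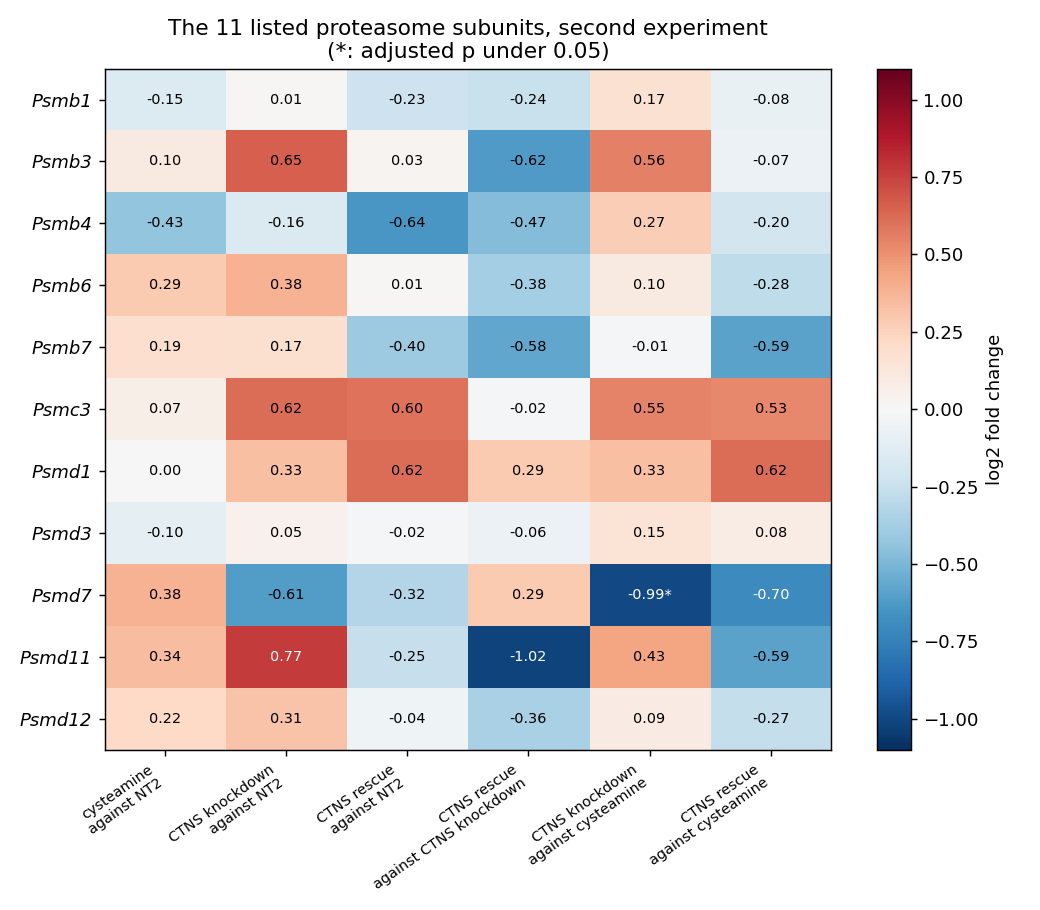
Log2 fold change of the 11 listed proteasome subunits (rows) in the 6 comparisons of the second experiment (columns), red above 0 and blue below; an asterisk marks an adjusted p under 0.05. The asterisk stands at Psmd7 in the knockdown against cysteamine, where 9 of the 11 values are above 0.

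Among the starvation comparisons, 5 of 11 subunits were above 0 in cysteine starvation against NT (median -0.16, against 0.011 over all transcripts), 3 of 11 in full amino acid starvation against NT (-0.16, against 0.049) and 6 of 11 in cysteine against full amino acid starvation (0.22, against 0.051). In these comparisons 0 of the 11 were called by edgeR, against 0%, 0% and 15% of all transcripts. The smallest p among them were those of Psmc3 in cysteine starvation against NT (-1.18 ± 0.40; 515 ± 192 and 1356 ± 854 CPM; adjusted p = 0.139) and Psmd3 in full amino acid starvation against NT (-1.95 ± 0.65; 100.0 ± 45.1 and 349 ± 216 CPM; adjusted p = 0.388). 2 values among the subunits, Psmd3 and Psmc3, stood at 1.74 ± 0.59 and -1.11 ± 0.40 in cysteine against full amino acid starvation (adjusted p = 0.0595 and 0.073). These values rest on few reads. Summed over the libraries of a group, Psmd3 had 4 counts in full amino acid starvation, 16 in NT and 36 in cysteine starvation. Psmc3 had 40, 41 and 49 in the same order.

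Beyond the subunits, 34 transcripts of the 140 genes on all ubiquitin and proteasome lists were measured, the 11 included. In the knockdown against cysteamine 3 of 34 rose (10.1% of all transcripts) and 3 fell (14.7% of all), among them Psmd7. The ubiquitin genes Rps27a, which encodes ubiquitin fused to a ribosomal protein, and Ubb, which encodes a chain of ubiquitin repeats, also fell. Rps27a measured 309 ± 74.8 CPM in the knockdown and 772 ± 40.9 CPM with cysteamine (-1.30 ± 0.25; adjusted p = 0.00285), and Ubb 421 ± 63.0 and 750.3 ± 48.4 CPM. Both genes have near-identical copies, so their counts are uncertain. The 3 that rose were the large ubiquitin ligase genes Herc1 (1.25 ± 0.27; adjusted p = 0.00458), Herc2 and Ubr4.

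In the rescue against NT2 3 of 34 rose and 3 fell (18.7% and 12.9% of all transcripts), with Ubb at -1.20 ± 0.24 (adjusted p = 0.00135) and Rps27a at -1.37 ± 0.29 (adjusted p = 0.00193). In the rescue against cysteamine 3 rose and 4 fell (15.6% and 14.8% of all), with Ubb at -1.57 ± 0.23 (252 ± 5.79 and 750.3 ± 48.4 CPM; adjusted p = 0.000571). In the knockdown against NT2 3 rose and 2 fell (17.6% and 13.2% of all), with Herc1 at 0.95 ± 0.25 (adjusted p = 0.0105). With cysteamine against NT2 the ubiquitin ligase gene Rnf213 was the 1 that fell (-1.51 ± 0.21; 735 ± 42.8 and 2091 ± 82.5 CPM; adjusted p = 0.000367), and 0 rose (5% and 5.5% of all); in the rescue against the knockdown Rnf213 was the 1 of 34 called (2.07 ± 0.21; adjusted p = 6.27e-05), against 0.643% of all transcripts. Cysteine against full amino acid starvation gave 1 that rose (2.57% of all) and 2 that fell (12.4% of all), among them Herc1 at -1.52 ± 0.37 (adjusted p = 0.013). Rnf213 was the 1 that rose there (1.66 ± 0.33; adjusted p = 0.00432). Rnf213 also fell in the knockdown against NT2 (-1.31 ± 0.21; adjusted p = 0.000393) and rose in the rescue against cysteamine (2.27 ± 0.21; adjusted p = 7.18e-06). The deubiquitinase gene Usp9x stood at -0.54 ± 0.19 with cysteamine against NT2 (adjusted p = 0.0778). In either starvation against NT 0 of 34 were called by edgeR; the deubiquitinase gene Usp34 stood at 1.52 ± 0.53 in cysteine starvation (adjusted p = 0.149) and Rnf213 at -0.97 ± 0.39 in full amino acid starvation (adjusted p = 0.471).

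The transcripts most like each of the 3 were ranked by Pearson's r of log2 CPM over 14 libraries, each centred on the mean of its experiment, among 897 transcripts with a mean count of at least 20. These values are descriptions over libraries that share groups, depth and scaling. For Psmd7 they were the ribosomal protein genes Rpl19 (0.829) and Rpl28 (0.815), with Gm20594 (0.824) between them. For Psmb6 they were Mllt1 (0.771), the cortactin gene Cttn (0.747) and the splicing factor gene Sf3b2 (0.679). For Psmb4 they were Gnb2, a G protein subunit gene (0.932), Ogdh, an enzyme gene of the citric acid cycle (0.802), and the transcript ENSMUST00000238684 (0.786). Among the 3 themselves r was 0.583 for Psmb6 with Psmd7, -0.397 for Psmb4 with Psmb6 and -0.331 for Psmb4 with Psmd7. Psmb6 and Psmd7 both had 1 count in each NT library, the lowest that could be seen. Their r thus rests in part on values at that floor.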

How the data were processed

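RNA was captured on oligo(dT) beads, and short fragments were excised from a gel and sequenced, per the labels' protocols. Tools named, per the submitters' processing notes, were STAR 2.7.10a, Bowtie 1.2.3, cutadapt 2.8 and bcl2fastq 2.20.0.422, with the assembly GRCm39; how transcripts were counted, and with which strand setting, was not given in the sources used here. The authors deposited counts, whole numbers for each Ensembl transcript with no scaling, despite a file name that says CPM. Symbols came from GENCODE M21, for 1385 of 1399 transcripts. edgeR 4.0.16 in R 4.3.3 fitted 7 group means with 7 residual degrees of freedom; tests were two-sided, and the SE is the one that matches each p. No transcript was filtered out. DESeq2 1.42.0, other scalings, a minimum mean count of 10, a single-experiment fit, a replicate block, each library left out, and NT2 as the control were alternatives. Log2 CPM used a prior count of 2. Chi-square per degree of freedom between libraries of a group was 1.55 to 4.55, above counting noise, so no pair was treated as 1 library deposited in duplicate. Named genes were the 3 transcripts, the 2 other list members with the smallest p in each comparison, and the 3 most like each transcript; members and lists were chosen with earlier results of these data known.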

Additional observations from a re-analysis of the deposited data

How the results depend on the processing

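Of 303 values of the 3 transcripts under other settings, 268 kept their direction and side of the threshold, 29 changed sign (0 of these past the threshold), 5 lost the call and 1 gained it. A value to which DESeq2 gave no adjusted p was counted as not called. The cause of these changes was not tested. Plain totals gave Psmb4 0.56 in cysteine starvation against NT and 2.44 in cysteine against full amino acid starvation, Psmd7 0.62 in the last, and Psmb6 -0.32 in the rescue against NT2. With NT2 as the control, cysteine starvation gave 0.066 (Psmb4), -0.11 (Psmb6) and -0.65 (Psmd7), and full amino acid starvation -0.33 (Psmb6) and -0.24 (Psmd7). NT2 belongs to the second experiment. In this setting, here and below, starvation thus cannot be told apart from experiment and depth. Scaling on ribosomal protein transcripts, chosen after seeing the data, gave Psmb6 -0.069 in cysteine against full amino acid starvation and -0.15 with cysteamine against NT2, Psmd7 -0.061 in the last, Psmb4 0.19 in the knockdown and Psmd7 0.19 in the rescue against NT2, Psmd7 -0.20 in the knockdown against cysteamine, and Psmb4 0.74, Psmb6 0.67 and Psmd7 0.25 in the rescue against cysteamine. The same-experiment fit gave Psmb6 -0.092 in the rescue against NT2.

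Leaving out each library in turn gave -0.86 to 0.27 for Psmb4 and -0.091 to 2.48 for Psmb6 in cysteine starvation against NT, and -1.40 to 1.17 for Psmb6 in cysteine against full amino acid starvation. It gave -0.58 to 0.13 for Psmb4 in the knockdown against NT2, -0.33 to 0.31 for Psmb6 in the rescue against NT2, -0.15 to 0.57 for Psmb4 and -1.16 to -0.86 for Psmd7 in the knockdown against cysteamine, and -1.03 to 0.24 for Psmb4 and -0.62 to 0.036 for Psmb6 in the rescue against cysteamine. The number of transcripts called ran from 0 to 112 in cysteine starvation and 0 to 20 in full amino acid starvation against NT, 18 to 193 in cysteine against full amino acid starvation, 15 to 32 with cysteamine, 191 to 237 in the knockdown and 257 to 287 in the rescue against NT2, 1 to 4 in the rescue against the knockdown, and 67 to 127 in the knockdown and 175 to 234 in the rescue against cysteamine. Values that kept their sign included 0.29 to 1.71 for Psmd7 in cysteine starvation, 0.70 to 2.12 for Psmd7 and 0.36 to 1.86 for Psmb6 in full amino acid starvation against NT, and -1.48 to -0.19 for Psmb4 in the rescue against NT2. A lone library was assumed to vary like the other groups.

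With all libraries these counts were 0, 0, 210, 147, 431, 441, 9, 346 and 425. In cysteine starvation against NT, 2 were called with DESeq2 size factors, 31 with plain totals, 67 by DESeq2 and 248 with NT2 as the control, which gave 459 in full amino acid starvation; ribosomal scaling gave 1 there. Cysteine against full amino acid starvation gave 548 with plain totals (474 higher, 74 lower, against 36 higher and 174 lower) and 87 within the experiment. Cysteamine against NT2 gave 93 with plain totals, 375 within the experiment and 260 with ribosomal scaling. The rescue against the knockdown gave 2 with plain totals, 3 with a minimum mean count of 10, 19 by DESeq2, 58 within the experiment and 4 with ribosomal scaling. The knockdown against cysteamine gave 529 within the experiment and 712 with ribosomal scaling (691 higher, 21 lower, against 141 and 205), and the rescue against cysteamine 811 with the last.

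With the replicate number as a block, 80 transcripts were called in cysteine starvation against NT and 269 with cysteamine against NT2, Psmb6 stood at -0.00089 in the rescue against NT2, and no call of the 3 transcripts changed. Correlations of same-numbered deviations lay between -0.21 and 0.29 among the starvation libraries. Among the others they lay between 0.092 and 0.28, all above 0. The main fit was set without a replicate block, and whether same-numbered libraries share a batch was not tested. Depth limits the first experiment, with 1 to 16 counts per transcript and library.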
